A study of Mus musculus with 5 samples.

Results

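The IL-2 receptor is built from 3 chains, and the genes Il2ra, Il2rb and Il2rg that encode them were followed here by symbol in all 5 single-cell RNA libraries of the series, as 3 of the 27726 genes common to the deposited matrices. All libraries came from lung cells of wild-type (WT) C57BL/6 mice, stated in the study's methods to be female and 4 to 8 weeks of age, sorted as lineage-negative, CD45+, Thy1.2+, CD127+ and ST2+ type 2 innate lymphoid cells (ILC2s). Cells of 5 mice were pooled in each library, so a library holds no spread between animals. The naive group was 1 library from mice without a tumour, taken fresh. The ta-non-activated group was 2 libraries from mice that carried TC1 tumour cells under the skin of the flank, taken fresh at week 2 and at week 3. The ta-activated group was 2 libraries from tumour-carrying mice of the same weeks whose sorted cells were cultured for 7 days with IL-33 and TSLP, per the labels, and also with human IL-2, per the study's methods, at 10 ng/mL each. No library was cultured without IL-2, so IL-2, the other cytokines and culture itself cannot be told apart.

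As background, CD25, the product of Il2ra, binds IL-2 but does not signal, CD122, the product of Il2rb, carries the signal and is shared with the IL-15 receptor, and CD132, the product of Il2rg, is the common chain that also serves the receptors for IL-4, IL-7, IL-9, IL-15 and IL-21. Binding of IL-2 brings the kinases JAK1 and JAK3 together and activates STAT5, which in T cells raises Il2ra itself and genes of survival and cell division. Lung ILC2s carry CD25 without prior stimulation, are kept alive by IL-7 and IL-2, and are commonly expanded in culture with IL-2. CD25 also marks regulatory T cells and early T cell precursors in the thymus, whereas CD122 is abundant on NK cells.

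In GENCODE M21 on GRCm38, the build that the submitters' processing notes name, Il2ra (ENSMUSG00000026770) lay on the plus strand of chromosome 2 at 11642807 to 11693193, with 44676 intronic bases. Il2rb (ENSMUSG00000068227) lay on the minus strand of chromosome 15 at 78479256 to 78495271, with 11729 intronic bases. Il2rg (ENSMUSG00000031304) lay on the minus strand of chromosome X at 101264378 to 101268255, with 1491 intronic bases. Levels are given as UMIs (unique molecular identifiers, 1 for each captured transcript) per 1000000 UMIs of the summed cells, written CPM, with exact Poisson 95% intervals that cover counting error only.

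Barcodes with 200 or more genes and under 5% mitochondrial counts were kept, which left 6389 naive cells, 1823 and 1601 ta-non-activated cells at weeks 2 and 3, and 2895 and 3822 ta-activated cells. The median depth ran from 4396 UMIs a cell in the week 3 ta-non-activated library to 16090 in that of week 2, and pairs of libraries shared 1 to 8 barcodes. A library was clustered on its own without the 3 receptor genes, and a cluster was called ILC2-like where its ILC2 marker list was the highest, it was not of low depth and its leading genes were not those of another cell type. By this rule 83.8% of naive, 100% of week 2 and 42.5% of week 3 ta-non-activated cells, and 96.2% and 94% of week 2 and week 3 ta-activated cells, were ILC2-like. All 12 markers of the ILC2 list had at least 1 UMI in the summed ILC2-like cells of every library. This does not set those cells apart. The 12 markers also had at least 1 UMI in the 856 T-cell-like cells described below, with 1 UMI of Il13 and 1 of Klrg1.

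Both ta-non-activated libraries stood apart, in different ways. That of week 3 held 920 cells outside the ILC2-like clusters, of which 856 were T-cell-like, with Cd3g, a chain of the T cell receptor complex, at 2284 CPM, Ptcra, a chain of the pre-T cell receptor, at 120.4 CPM, Trac, the constant part of the alpha chain of the mature receptor, at 2.79 CPM and Il1rl1, which encodes the ST2 used in the sort, at 1.67 CPM. The summed list of 12 T cell genes stood at 6404 CPM in this library and at 298 to 1266 CPM in the other 4. That of week 2 was closer over all genes to the cultured cells than to the other fresh tumour-associated library. Over 8837 genes in ILC2-like cells, its log2 CPM correlated at 0.868 and 0.856 with the week 2 and week 3 ta-activated libraries and at 0.780 with that of week 3 ta-non-activated cells, where genes are not independent replicates. Over all kept cells it had Socs1, a feedback inhibitor of cytokine signalling, at 919 CPM. Socs1 stood at 953 and 502 CPM in ta-activated cells of weeks 2 and 3 and at 152 CPM in fresh cells of week 3. Il9 and Gzmb, which encodes granzyme B, instead differed from the cultured cells. Il9 stood at 12580 CPM, against 115 and 342 CPM in ta-activated cells and 0 in fresh cells of week 3. Gzmb was at 2.47 CPM in this fresh library of week 2, against 1303 and 346.5 CPM in ta-activated cells. No source used here says whether the label or the handling of that library differed, so every ta-non-activated mean and fold holds only as far as its label does. The comparison of the ta-activated and ta-non-activated groups is therefore also given without each of these libraries.

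Il2ra was highest in the week 2 cultured cells and lowest in the fresh cells of week 3. It stood at 425 CPM in naive cells, at 322 and 136 CPM in ta-non-activated cells of weeks 2 and 3, and at 1107 and 356 CPM in ta-activated cells of weeks 2 and 3. The lower cultured library, at 356 CPM, lay close to the higher fresh tumour-associated one, at 322 CPM. The naive, week 3 ta-activated and week 2 ta-non-activated libraries, neighbours in this order, differed by less than the 3.11-fold gap between the 2 cultured libraries. Per cell, the sum came to 2.16 Il2ra UMIs in naive cells and 21.9 in week 2 ta-activated cells. These counts also carry depth, since the means were 5070 and 19811 UMIs a cell in the same order.

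Il2rb stood at 89.2 CPM in naive cells, at 38.2 and 7.77 CPM in ta-non-activated cells of weeks 2 and 3, and at 81.6 and 90.4 CPM in ta-activated cells. The cultured libraries lay 1.11-fold apart, near the naive level. In ILC2-like cells alone, the order from the top was week 3 ta-activated at 91.2, week 2 ta-activated at 79.8, naive at 63.5, week 2 ta-non-activated at 38.2 and week 3 ta-non-activated at 25.5 CPM. With that restriction the naive level was 63.5 in place of 89.2 CPM and the week 3 ta-non-activated level was 25.5 in place of 7.77 CPM, so both depended on the other cells in the library.

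Il2rg stood at 388 CPM in naive cells, at 192 and 154 CPM in ta-non-activated cells and at 203 and 442 CPM in ta-activated cells of weeks 2 and 3. Restricted to ILC2-like cells, the week 3 ta-non-activated level was 406 CPM, 2.63-fold that of all cells of the library. The levels then formed a low pair, week 2 ta-non-activated at 192 and week 2 ta-activated at 200 CPM, and a high set of naive at 400, week 3 ta-non-activated at 406 and week 3 ta-activated at 446 CPM. Within ILC2-like cells, tumour-associated libraries of the same week thus lay closer in Il2rg than those of the same treatment. Each point is 1 library, and neither week nor culture was tested as the source of this order.

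**Figure D1:**
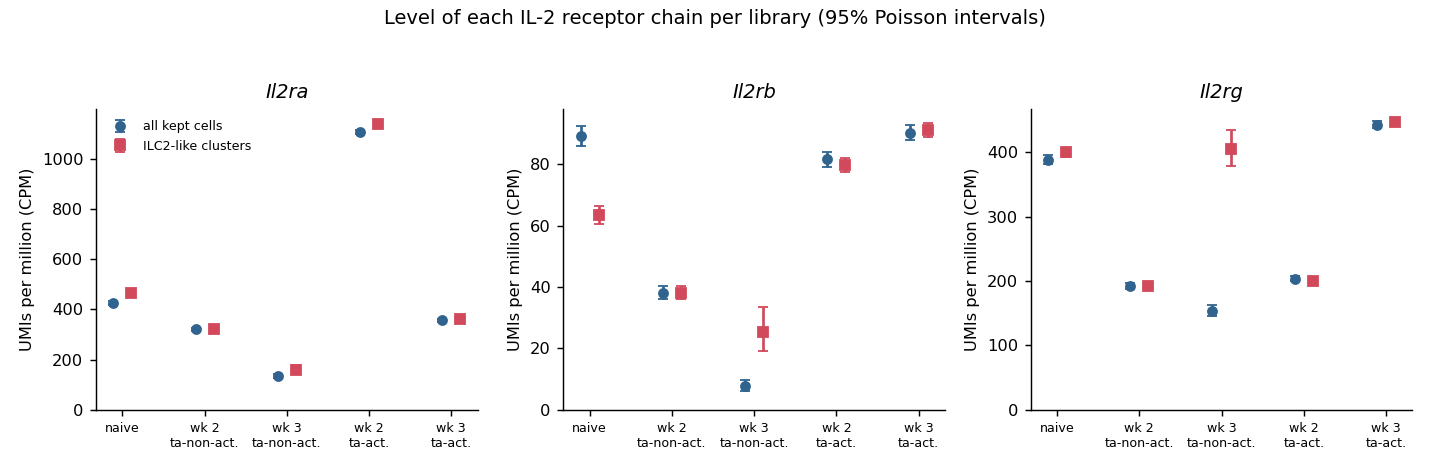
Level of Il2ra, Il2rb and Il2rg in CPM (vertical axis, from 0) in each of the 5 libraries, for all kept cells (circles) and ILC2-like clusters (squares); bars are exact 95% Poisson intervals for counting error. Il2ra peaked at 1107 CPM in the week 2 ta-activated library, and among fresh cells of week 3 the levels of Il2rb and Il2rg depended on which cells were counted (Il2rg 154 CPM in all cells, 406 CPM in ILC2-like cells).

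The ta-activated and ta-non-activated groups were compared on counts summed per library, which asks what a week of culture with the cytokines adds to tumour-associated cells. The mean level of Il2ra was 731 ± 531 CPM (SD, n = 2) in ta-activated and 229 ± 131 CPM (SD, n = 2) in ta-non-activated cells, with a log2 fold change of 1.54 (SE 0.81) and an edgeR quasi-likelihood adjusted p of 0.394. The mean level of Il2rb was 86.0 ± 6.17 CPM (SD, n = 2) against 23.0 ± 21.5 CPM (SD, n = 2), with a log2 fold change of 1.70 (SE 0.86) and an edgeR adjusted p of 0.382. The mean level of Il2rg was 323 ± 169 CPM (SD, n = 2) against 173 ± 26.7 CPM (SD, n = 2), with a log2 fold change of 0.77 (SE 0.50) and an edgeR adjusted p of 0.472. None of the 3 chains passed the threshold of 0.05, and neither did any of the 12643 genes tested (0%), although 2120 had an unadjusted p under 0.05 and DESeq2 called 1037. In ILC2-like cells alone the log2 fold change of Il2rg was -0.07, in place of 0.77, and those of Il2ra and Il2rb were 1.46 and 1.22. With the fresh library of week 2 left out, the log2 fold changes were 2.52 for Il2ra, 3.53 for Il2rb and 1.12 for Il2rg, with edgeR adjusted p of 0.131, 0.029 and 0.222, where 12.1% of 13604 genes passed. Without that of week 3 they were 0.96, 0.92 and 0.49, with edgeR adjusted p of 0.437, 0.0964 and 0.545, where 3.85% of 13327 genes passed. The Il2rb call was made against the fresh library of mostly T-cell-like cells, and in both fits the lone fresh library is assumed to vary like the cultured ones.

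Within each week, without a test, the cultured cells were higher for Il2ra and Il2rb at both time points. In ILC2-like cells, Il2ra was 3.54-fold higher in the cultured library of week 2 and 2.27-fold higher in that of week 3, and Il2rb was 2.09-fold and 3.58-fold higher. Il2rg was 1.04-fold and 1.10-fold higher. A level 2-fold or more above the fresh library of the same week was reached by 2 of the 3 chains in each week, against 16.5% of 7515 genes in week 2 and 24.3% of 7923 genes in week 3. In all kept cells of week 3 it was reached by all 3 chains, against 19.9% of 8189 genes. Between the 2 cultured libraries, where 5.85% of 7554 genes differed by 2-fold or more in either direction, Il2ra was 3.11-fold higher in week 2 and Il2rg 2.18-fold higher in week 3.

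In ILC2-like cells, the week 2 ta-non-activated level was 1.44-fold lower than naive for Il2ra, 1.66-fold for Il2rb and 2.08-fold for Il2rg, with 34.3% of 8229 genes 2-fold or more lower. In all kept cells it was 1.32-fold, 2.33-fold and 2.02-fold lower, with 35.6% of 8326 genes 2-fold or more lower, so Il2rb passed that fold only with the other naive cells counted. In ILC2-like cells of week 3, the ta-non-activated level was 2.92-fold lower for Il2ra and 2.49-fold lower for Il2rb, and Il2rg stood at 406 against 400 CPM, with 26.8% of 7866 genes 2-fold or more lower. The naive matrix was made with another Cell Ranger version than the other 4, and genes with long introns were higher in it. Among genes with 40000 or more intronic bases, the class of Il2ra, the median log2 ratio of week 2 ta-non-activated over naive was -1.71, whereas it was 0.513 for genes with 5000 to 15000 intronic bases, the class of Il2rb, and 0.754 for genes with fewer than 5000, the class of Il2rg. In all kept cells, the log2 ratios of the chains themselves were -0.40, -1.22 and -1.02. The part of the counting in these differences was not tested.

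Detection per cell was compared after each cell of 2000 or more UMIs was thinned to 2000 UMIs, since deeper cells detect more genes. A UMI of Il2ra was then found in 46.4% of naive cells, in 40.3% and 24.8% of ta-non-activated cells of weeks 2 and 3, and in 58.4% and 40.5% of ta-activated cells. A UMI of Il2rb was found in 12.7%, 7.24%, 2.54%, 10.9% and 13.9% of cells in the same order. A UMI of Il2rg was found in 51.7%, 33.1%, 32.3%, 33.8% and 60.2% of cells. The intervals of these shares, drawn in the plot of detection, cover the counting of cells within 1 library and not the spread between libraries. Without thinning the Il2ra shares were 68%, 89%, 44.2%, 88.2% and 83.4%.

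Some of these UMIs need not come from the cell that carries them, since free RNA enters droplets. In the naive library, 33% of 97 cells of a cluster led by Sftpc and Scgb1a1, genes of lung epithelium, held an Il2ra UMI at this depth 5.15% an Il2rb UMI and 41.2% an Il2rg UMI, against 49.6%, 9.7% and 52.9% of ILC2-like cells, with median depths of 4527 and 4517 UMIs in that cluster and in the whole library. In the week 3 ta-non-activated library, 0.175% of 572 cells of the largest T-cell-like cluster held an Il2rb UMI, against 5.08% of 590 ILC2-like cells. The Sftpc-led cluster held the summed ILC2 list at 7174 CPM, between the 5147 and 16520 CPM of the naive ILC2-like clusters, so it is no clean background, and no doublet caller was run. Its Il2rb share rests on 5 cells, with an exact interval of 1.69 to 11.6% that holds the ILC2-like share, so naive Il2rb detection was not separated from it.

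**Figure D2:**
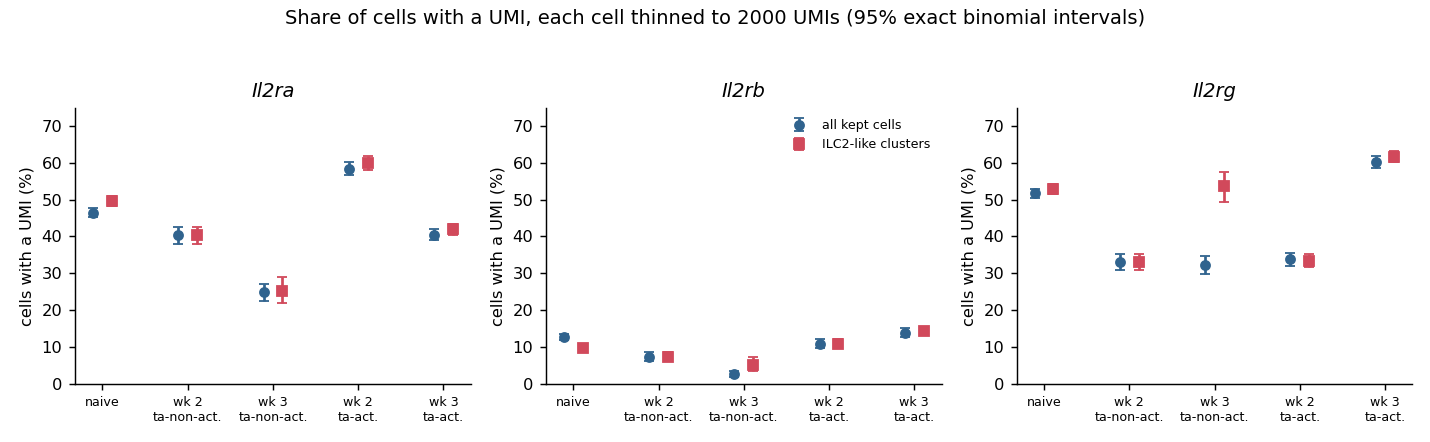
Percent of cells with at least 1 UMI of each chain after thinning to 2000 UMIs per cell (vertical axis), per library, for all kept cells (circles) and ILC2-like clusters (squares); bars are exact 95% binomial intervals. Il2ra reached 58.4% in week 2 ta-activated cells, Il2rb stayed at or under 13.9% of all kept cells in every library, and Il2rg reached 60.2% in week 3 ta-activated cells.

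At 10000 UMIs per cell, which left 1889 and 2523 ta-activated cells of weeks 2 and 3, Il2ra was found in 93.8% and 85.8%, Il2rb in 42.5% and 49.8%, and Il2rg in 80.7% and 96.9% of cells. All 3 chains were then found together in 33.1% and 41.5% of cultured cells, in 22% of 1439 week 2 ta-non-activated cells and in 47.7% of 310 naive cells. Those 310 were the deepest of the 6389 naive cells, and 46.2% of the 208 ILC2-like cells among them held all 3. A cell with Il2ra and Il2rg but no Il2rb UMI was the most frequent kind in fresh week 2 cells (51.7%) and cultured week 2 cells (42.8%), and in cultured week 3 cells it was about as frequent (41.8%) as one with all 3. Too few ILC2-like cells of week 3 ta-non-activated mice reached this depth to give their shares. At 2000 UMIs per cell the naive share was not the highest. All 3 chains were then found in 3.04% of naive, 1.27% of week 2 ta-non-activated, and 2.73% and 4.12% of week 2 and week 3 ta-activated cells.

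The spread of Il2ra between cells differed more among libraries than that of Il2rg. At 10000 UMIs per cell, the variance of Il2ra UMIs was 10.3 times their mean in week 2 and 3.91 times in week 3 ta-activated cells. It was 2.0 times in week 2 ta-non-activated cells and 5.11 times in 310 naive cells, where pure counting noise gives a ratio near 1. For Il2rg the ratio was 1.55, 1.56, 1.23 and 1.24 in the same order. For Il2rb it was 1.62, 1.47, 1.04 and 2.39. A wide spread was thus not limited to cultured cells, and the ratio also depends on the mean level. In week 2 ta-activated cells the median was 6 Il2ra UMIs and the highest cell had 90.

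The clusters, made without the receptor genes, showed where Il2ra lay, and their levels are a description with no test. In the week 2 ta-activated library, the 5 ILC2-like clusters ran from 81.6 to 1781 CPM, and the low end was a cluster of 65 cells with 30 Il2ra UMIs, without which the lowest was 376 CPM. The highest was a cluster of 780 cells led by Nts, Il9 and Penk, in which Il2rb (123 CPM) and Il2rg (260 CPM) were also the highest of the ILC2-like clusters. A cluster of 609 cells led by the division genes Cenpf, Birc5 and Mki67 had Il2ra at 936 CPM, and a cluster of 442 cells led by interferon-induced genes such as Ifit2 and Ifit3 had it at 376 CPM. In the week 3 ta-activated library the range was narrower, 270 to 455 CPM over 5 ILC2-like clusters. There the highest was a cluster of 401 cells led by Il22, Ccl1 and Timp3, which also held the highest Il2rb level, 156 CPM, and the lowest, 270 CPM in 1454 cells, was led by Ms4a4b and Ifit2. Il2rg was highest, at 601 CPM, in 996 cells led by Ramp3 and Calca.

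In the naive library the 6 ILC2-like clusters ran from 221 to 1076 CPM of Il2ra. A cluster of 1340 cells led by Areg, a growth factor made by activated ILC2s, and also by Il5 and Calca, had 690 CPM. The cluster of 1076 CPM held 226 cells with a median of 2109 UMIs. Il2rb had its naive maximum outside the ILC2-like clusters. It reached 219 CPM in 512 cells led by the NK cell genes Xcl1, Gzma and Nkg7, and 211 CPM in 410 cells led by Il23r and Blk, against 25.3 to 105 CPM in ILC2-like clusters. In the week 2 ta-activated library, 68 cells led by Gzmc, Klrd1 and Xcl1 likewise had Il2rb at 155 CPM. In the naive clusters of 512 and 410 cells the ILC2 list was still the highest list, at 6679 and 5740 CPM. Neither is thus a clean set of other cells.

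The T-cell-like cells of week 3 ta-non-activated mice carried Il2ra without Il2rb. The 677 of these cells outside the dividing cluster had Il2ra at 195 CPM, Il2rg at 104 CPM and 4 Il2rb UMIs in all, 0.951 CPM with an interval of 0.259 to 2.43 CPM. The dividing T-cell-like cluster of 179 cells had Il2ra at 39.5 CPM and Il2rg at 37.8 CPM, with 0 Il2rb UMIs, which allows up to 1.25 CPM. Rag1, which cuts the receptor genes of developing lymphocytes, stood at 121 CPM in the first set and 29.1 CPM in the second. Foxp3, the factor that defines regulatory T cells, was at 0 UMIs in all 856 cells. Of the other genes on the regulatory T cell list, Ikzf2 stood at 239 CPM, Ctla4 at 55.0 CPM and Cd4 at 0.419 CPM in these cells. The 2 ILC2-like clusters of this library had Il2ra at 115 and 195 CPM, Il2rb at 18.7 and 31.2 CPM and Il2rg at 367 and 438 CPM.

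**Figure D3:**
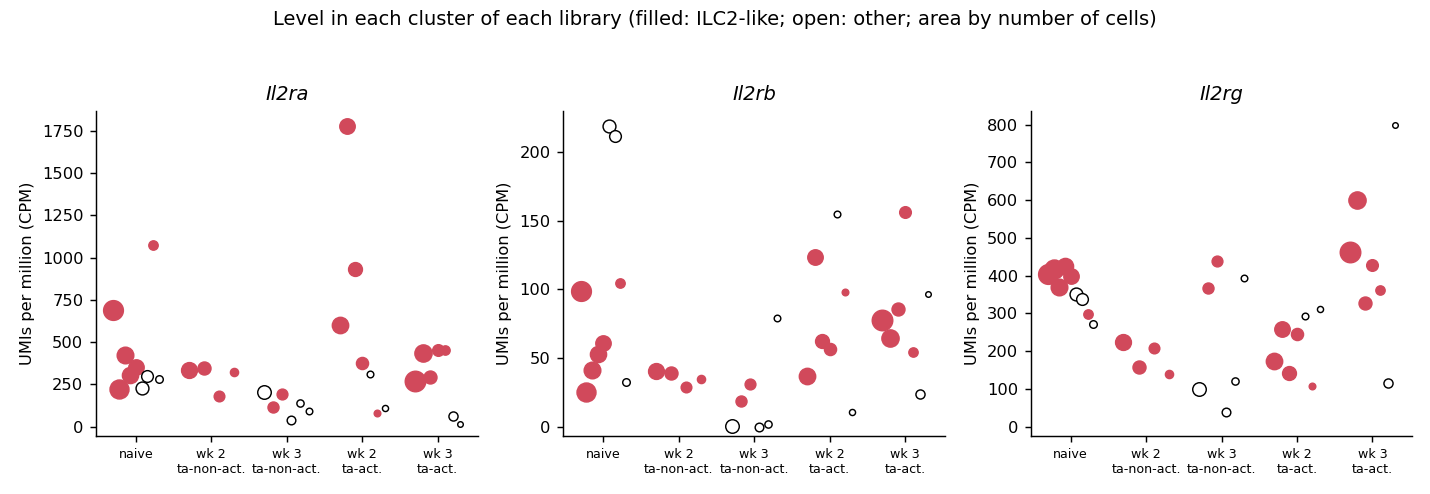
Level of each chain in CPM (vertical axis) in every cluster of every library, with filled points for ILC2-like clusters, open points for others and point area growing with the number of cells. Il2ra of week 2 ta-activated cells spread from 81.6 (65 cells) or, without that cluster, 376 to 1781 CPM over ILC2-like clusters, and the highest naive Il2rb levels, 219 and 211 CPM, lay in open points.

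Whether cultured cells in division differed in the receptor was asked by splitting them on 12 genes of S phase and of G2 and mitosis, none of which is a receptor gene. A cell counted as cycling where at least 2 of the 12 genes had a UMI after thinning to 2000 UMIs. By this rule 672 of 2822 (23.8%) week 2 and 699 of 3714 (18.8%) week 3 ta-activated cells were cycling. The share was 11.4% and 14.5% of ta-non-activated cells of weeks 2 and 3 and 0.846% of naive cells. The fresh cells of week 3 included a dividing T-cell-like cluster of 179 cells, so 14.5% is not a share of ILC2-like cells. For ILC2-like cells of this library the 12 genes summed to 120 CPM, against 1447 CPM for all its kept cells. In the naive library they summed to 30.8 CPM in ILC2-like cells and 95.5 CPM in all kept cells. The naive cluster led by Xcl1, Gzma and Nkg7 had them at 682 CPM, so 0.846% is not a share of ILC2-like cells either.

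Cycling cells had lower Il2ra and Il2rg relative to all their UMIs. Il2ra stood at 934 CPM in cycling and 1206 CPM in other cells of week 2, and at 325 and 369 CPM in those of week 3, a log2 fold change of -0.36 (SE 0.09) with an edgeR adjusted p of 0.00506. Il2rg stood at 153 and 232 CPM in week 2 and at 344 and 482 CPM in week 3, a log2 fold change of -0.63 (SE 0.09) with an edgeR adjusted p of 4.04e-05. Il2rb stood at 71.7 and 87.1 CPM in week 2 and at 89.1 and 91.0 CPM in week 3, and its log2 fold change of -0.24 (SE 0.10) missed the threshold (edgeR adjusted p = 0.0581). Thus 2 of 3 chains were lower in cycling cells, where 20.9% of the 12250 genes tested were lower and 41.5% passed in either direction. The test compares cells of the same 2 libraries, so its p measures how alike the difference was in both. Without the library as a term, the adjusted p was 0.860 for Il2ra and 0.623 for Il2rg.

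Cycling cells were also larger in UMIs, with medians of 24673 against 11359 in week 2 and 20897 against 11546 in week 3. Counted per cell rather than as CPM, each chain was more abundant in cycling cells. Week 2 cells had 28.8 Il2ra UMIs a cell when cycling and 20.5 otherwise, a ratio of 1.40, and week 3 cells 8.13 and 5.41, a ratio of 1.5. The ratio per cell was 1.49 and 1.67 for Il2rb and 1.19 and 1.22 for Il2rg in weeks 2 and 3. When cells were split without thinning, so that deeper cells were more often called cycling, the log2 fold change of Il2ra was 0.22 (edgeR adjusted p = 0.0798) and that of Il2rb 0.16 (edgeR adjusted p = 0.185), whereas that of Il2rg stayed at -0.43 (edgeR adjusted p = 0.00199).

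Il2ra CPM was higher in cells of more UMIs, so cells of alike depth were also set side by side, a choice made after seeing the data. Over all week 2 ta-activated cells, Il2ra stood at 424 CPM in cells of 2000 to 10000 UMIs, 684 CPM from 10000 to 20000, 982 CPM from 20000 to 40000 and 1730 CPM at 40000 or more. The same ranges gave 281, 319, 353 and 482 CPM in week 3. For Il2rb they gave 51.5, 56.7, 67.9 and 120 CPM in week 2 and 68.6, 73.5, 90.1 and 138 CPM in week 3. Il2rg was instead lower in deeper cells, at 232, 218, 189 and 196 CPM in week 2 and 525, 476, 405 and 378 CPM in week 3.

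Between 20000 and 40000 UMIs, Il2ra stood at 654 CPM in 294 cycling and 1275 CPM in 334 other cells of week 2, and at 301 and 391 CPM in 282 cycling and 388 other cells of week 3. All 3 chains were lower in the cycling cells of this range, with log2 fold changes of -0.82 (SE 0.10) for Il2ra, -0.80 (SE 0.11) for Il2rb and -0.56 (SE 0.08) for Il2rg and edgeR adjusted p of 0.000147, 0.000433 and 0.000474, where 15.6% of 10925 genes were lower and 32.4% passed in either direction. In each of the 3 ranges from 10000 UMIs up, each chain was lower in cycling cells of both libraries, by the least for Il2rb of week 3 between 10000 and 20000 UMIs, 72.3 against 73.7 CPM. Below 10000 UMIs, where week 2 had 26 cycling cells, Il2ra and Il2rg of week 2 were higher in cycling cells.

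**Figure D4:**
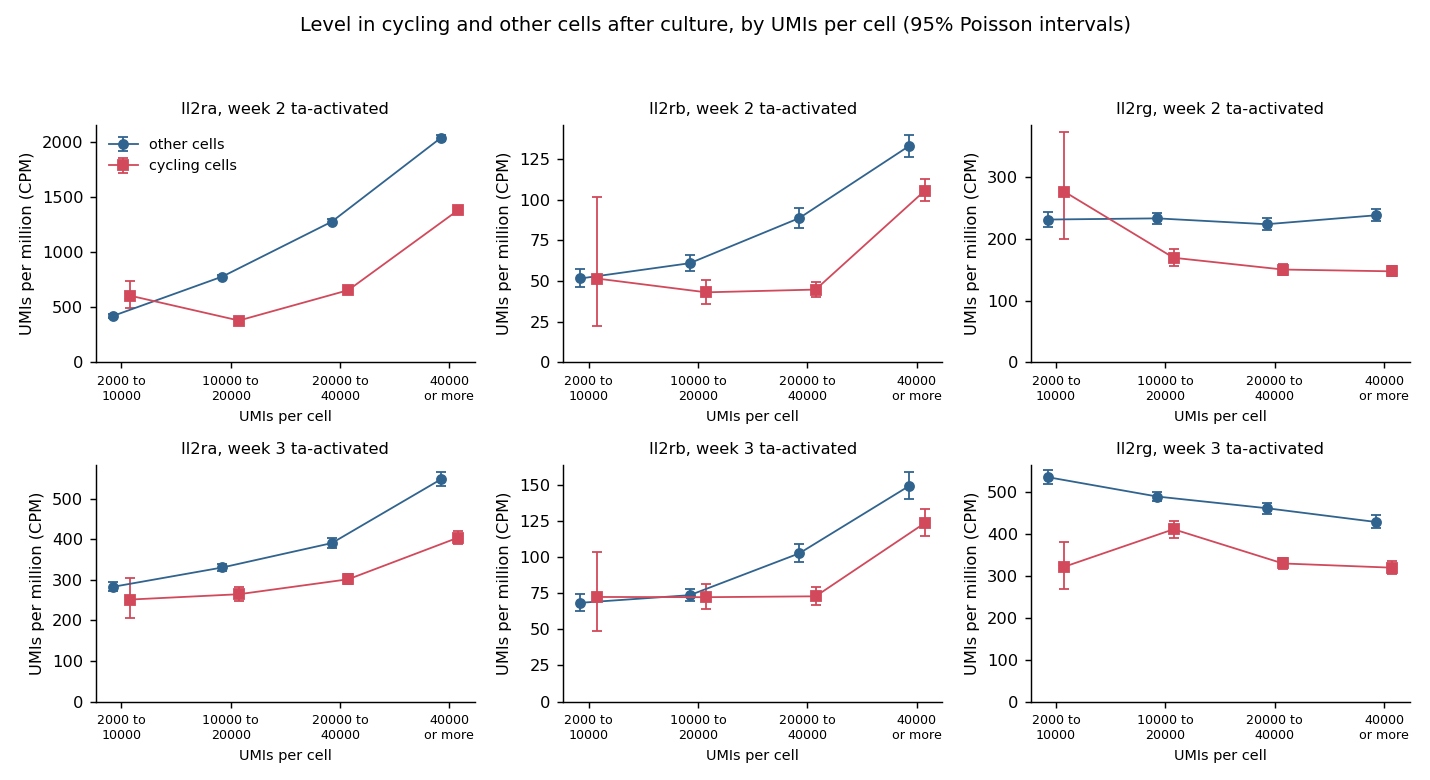
Level of each chain in CPM (vertical axis, from 0) in cycling (squares) and other (circles) cells of the 2 ta-activated libraries, in 4 ranges of UMIs per cell (horizontal axis); bars are exact 95% Poisson intervals. From 10000 UMIs up the cycling cells lay under the other cells. Between 20000 and 40000 UMIs in week 2, for example, Il2ra stood at 654 against 1275 CPM. In other cells Il2ra and Il2rb were higher in each deeper range. In cycling cells of week 2, Il2ra stood at 605 CPM below 10000 UMIs (26 cells) and at 378 CPM from 10000 to 20000.

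Seen from the receptor, the share of cycling cells was lowest where a thinned cell held the most UMIs of Il2ra or Il2rg, but not of Il2rb. In week 2 ta-activated cells, 23.6% of cells with 0 Il2ra UMIs were cycling, 25.9% with 1, 25% with 2 to 3 and 18.6% with 4 or more (exact binomial 95% interval 14.8 to 22.9%). In week 3 the shares were 18.9%, 21%, 15.4% and 10.7% (4.72 to 19.9% in the last class, of 75 cells). The intervals at 0 Il2ra UMIs, 21.2 to 26.2% in week 2 and 17.3 to 20.6% in week 3, overlapped those of the last class. For Il2rg they went from 26% at 0 UMIs to 13% at 2 to 3 UMIs in week 2 and from 22.9% at 0 to 4.72% at 4 or more UMIs in week 3. For Il2rb they were 24.6%, 17% and 20.7% at 0, 1 and 2 to 3 UMIs in week 2 and 18.7%, 19% and 24.1% in week 3. Between cells with none of the 12 cycle genes and cells with 6 or more, Il2ra went from 1225 to 786 CPM in week 2 and from 363 to 280 CPM in week 3.

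Among fresh cells of week 2, Il2ra stood at 326 CPM in 207 cycling and 321 CPM in 1602 other cells, and Il2rg at 155 and 199 CPM. Among those of week 3, Il2ra stood at 58.2 CPM in 217 cycling and 176 CPM in 1278 other cells, and a dividing T-cell-like cluster of 179 cells lay among its cycling cells. The difference between cultured and fresh cells in this respect was not tested.

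Of the 41 other genes of the IL-2 pathway listed by role, 40 passed the filter on low counts in both comparisons. None passed the test between ta-activated and ta-non-activated cells, and the median log2 fold change of the 40 was 0.34, against -0.02 over all genes tested. Leaving out the fresh cells of week 2 gave these 40 a median of 1.12, against 0.11 over all genes tested. The only fresh cells left in that fit were those of week 3, which were mostly T-cell-like. Leaving out the fresh cells of week 3 instead gave a median of 0.33, against 0.12 over all genes tested. Between cycling and other cultured cells, 23 were lower and 3 higher, against 20.9% and 20.5% of all genes tested, with a median of -0.34 against -0.04. Lower and higher here, and in the values by role below, are relative to all UMIs. Cycling cells held more UMIs, and the receptor chains, lower in CPM, were more abundant per cell in them. UMIs per cell are not given here for these 40 genes. The genes given by role are the 2 with the largest change in each comparison. The 3 higher genes were Slc7a5, Tfrc and Il21r, the last 2 named after their values were seen.

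Among ligands, 0 of 5 passed between cultured and fresh cells, where Il9, at 12580 CPM in 1 fresh library and 0 in the other, had a log2 fold change of -5.04 (SE 3.6) and Il2 of -3.46 (SE 1.77). Both depended on the fresh library, since Il2 had -4.42 (edgeR adjusted p = 0.0292) without that of week 2 and 1.53 (edgeR adjusted p = 0.21) without that of week 3, and Il9 passed in opposite directions. Between cycling and other cells 3 of the 5 were lower, among them Il15 at -1.01 (SE 0.23, edgeR adjusted p = 0.00165), and Il2 had 0.53 (SE 0.30, edgeR adjusted p = 0.176). Of the 5 receptor chains that partner or neighbour the common chain, 3 were lower and 1 higher in cycling cells. Il7r, the IL-7 receptor chain that pairs with CD132, fell by 1.08 on the log2 scale (SE 0.10, edgeR adjusted p = 6.55e-08) and Il15ra, which presents IL-15 to CD122, by 0.72 (SE 0.14, edgeR adjusted p = 0.000606). Between cultured and fresh cells Il7r and Il9r had log2 fold changes of 1.04 (SE 0.47) and 1.13 (SE 0.36) and did not pass. Without the week 2 fresh library that of Il9r was 1.45. These directions depended on the cells counted. In ILC2-like cells alone, Il9r stood at 14.81 and 52.52 CPM in fresh cells of weeks 2 and 3, against 30.66 and 35.25 CPM in cultured cells. Il7r likewise stood at 168.4 and 1467 CPM in fresh cells, against 580.6 and 696 CPM in cultured cells.

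Of the 3 receptors for the other culture cytokines, 2 were lower in cycling cells. Il1rl1, the IL-33 receptor, fell by 1.90 on the log2 scale (SE 0.12, edgeR adjusted p = 4.6e-10), and Crlf2, the TSLP receptor chain, fell by 0.48 (SE 0.10). Between cultured and fresh cells Crlf2 had a log2 fold change of 1.23 (SE 0.35) and Il1rap, the second chain of the IL-33 receptor, of -0.18 (SE 0.46).

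Among kinases and factors, 4 of 5 were lower in cycling cells, with Stat3 at -0.46 (SE 0.10) and Jak1 at -0.42 (SE 0.10). Between cultured and fresh cells Jak3, the kinase bound to CD132, had a log2 fold change of 1.11 (SE 0.57) and Stat5a of -0.85 (SE 0.34). Neither passed the test. Without the week 2 fresh library Jak3 had 2.07, over all kept cells. Its week 3 fresh level was 8.515 CPM in all kept cells and 18.5 CPM in ILC2-like cells. Cultured ILC2-like cells of weeks 2 and 3 had Jak3 at 31.9 and 37.1 CPM. All 4 feedback inhibitors were lower in cycling cells, with Socs3 at -0.77 (SE 0.15) and Socs1 at -0.51 (SE 0.09). Between cultured and fresh cells their median was 1, with Socs3 at 1.42 (SE 0.86) and Socs2 at 1.23 (SE 0.59), and 0 of 4 passed. For Socs2 the direction depended on the cells counted. In fresh cells of week 3 it stood at 30.65 CPM in all kept cells and 115 CPM in ILC2-like cells. Cultured ILC2-like cells of week 3 had 91.27 CPM. In week 2, Socs2 stood at 63.35 CPM in fresh and 156.2 CPM in cultured ILC2-like cells. Socs1, Socs3 and Cish stayed higher in cultured ILC2-like cells of week 3, with Cish at 263.8 against 171.6 CPM.

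Of 8 genes of survival and cycle entry, 4 were lower and 0 higher in cycling cells. Ccnd2, a cyclin of entry into the cycle, fell by 1.15 on the log2 scale (SE 0.09, edgeR adjusted p = 2.32e-08), and Bcl2l1, a survival gene, fell by 0.47 (SE 0.10). Between cultured and fresh cells Pim2 and Ccnd2 had log2 fold changes of 1.31 (SE 1.42) and 1.30 (SE 0.66) and did not pass. Without the week 2 fresh library they had 5.44 and 2.49, over all kept cells. The week 3 fresh level of Ccnd2 was 145 CPM in all kept cells and 230 CPM in ILC2-like cells. That of Pim2 was 1.6 CPM in all kept cells and 2.0 CPM in ILC2-like cells. Of 10 other genes known to rise with IL-2, 3 were lower and 2 higher. Slc7a5, an amino acid transporter chain, was higher by 1.35 (SE 0.12) and Tnfrsf9, which encodes 4-1BB, fell by 0.997 on the log2 scale (SE 0.14). Gzmb, which encodes granzyme B, had the largest log2 fold change of the list between cultured and fresh cells, 6.30 (SE 1.35, edgeR adjusted p = 0.243), with 1303 and 346 CPM in ta-activated against 2.47 and 19.1 CPM in ta-non-activated cells, and Tnfrsf9 had 3.35 (SE 0.76). Tnfrsf9 had 4.46 without the week 2 fresh library, over all kept cells. Its week 3 fresh level was 7.025 CPM in all kept cells and 15.5 CPM in ILC2-like cells. Gzmb had 5.52 and 8.16 without the fresh libraries of weeks 2 and 3.

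The ligand gene Il2 itself was found in fresh ILC2-like cells. It stood at 149 CPM in naive and 156 CPM in week 3 ta-non-activated ILC2-like cells, against 0.451 CPM in week 2 ta-non-activated and 1.52 and 1.28 CPM in ta-activated ILC2-like cells. Both high libraries were fresh, and the fresh library at the low level was that of week 2, which was described above as nearest to the cultured ones. In the naive library, Il2 was highest, 238 CPM, in the Areg-led cluster of 1340 cells, and among fresh cells of week 3 the maximum was 241 CPM, in the cluster led by Ccl1, Cxcl2 and Areg. The naive cluster led by Sftpc also held 203 CPM, while that led by Il23r held 15.8 CPM, and the former, as given above, also carried the ILC2 list. The T-cell-like cluster of 579 cells at week 3 held 0.833 CPM. At 2000 UMIs a cell, 51% of 838 naive ILC2-like cells with an Il2 UMI and 49.3% of 4327 without one held an Il2ra UMI, with overlapping exact intervals of 47.5 to 54.4% and 47.8 to 50.8%.

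After thinning to equal depth, cells with more Il2ra more often held RNA of the type 2 cytokines Il5 and Il13. This was seen in both cultured libraries and in fresh cells of week 2, and for Il5 also in naive cells. The relation was looked for after the clusters had been seen. In week 2 ta-activated ILC2-like cells, Il5 was found in 44.9% of 1085 cells with 0 Il2ra UMIs, 56.8% with 1, 61.5% with 2 to 3 and 78.9% of 375 cells with 4 or more. Il13 was found in 64.4%, 74.4%, 84% and 93.3% of the same classes. In week 3 ta-activated cells Il5 went from 52% to 81.3% and Il13 from 83.1% to 97.3%. In week 2 ta-non-activated cells Il5 went from 54.9% to 80% and Il13 from 85.4% to 100% (20 cells in the last class). There the first and last exact intervals overlapped for Il5 (51.9 to 57.9% and 56.3 to 94.3%) and for Il13 (83.1 to 87.4% and 83.2 to 100%). Those at 0 and 1 Il2ra UMIs did not overlap. Naive cells had far lower shares, with Il5 in 15.5% to 26.6% and Il13 in 4.84% to 7.61% of cells, and the first and last exact intervals overlapped for Il13 (4.05 to 5.74% and 4.22 to 12.4%) but not for Il5. Fresh ILC2-like cells of week 3 held Il5 in 15%, 15.3% and 34.5% and Il13 in 4.54%, 3.39% and 10.3% of cells with 0, 1 and 2 to 3 Il2ra UMIs, with 29 cells in the last class. Thinning did not make the cells alike in their own UMIs, and Il2ra CPM was higher in cultured cells of more UMIs, as given above. Cells of 1 library share its chemistry and depth, so these are descriptions within libraries.

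**Figure D5:**
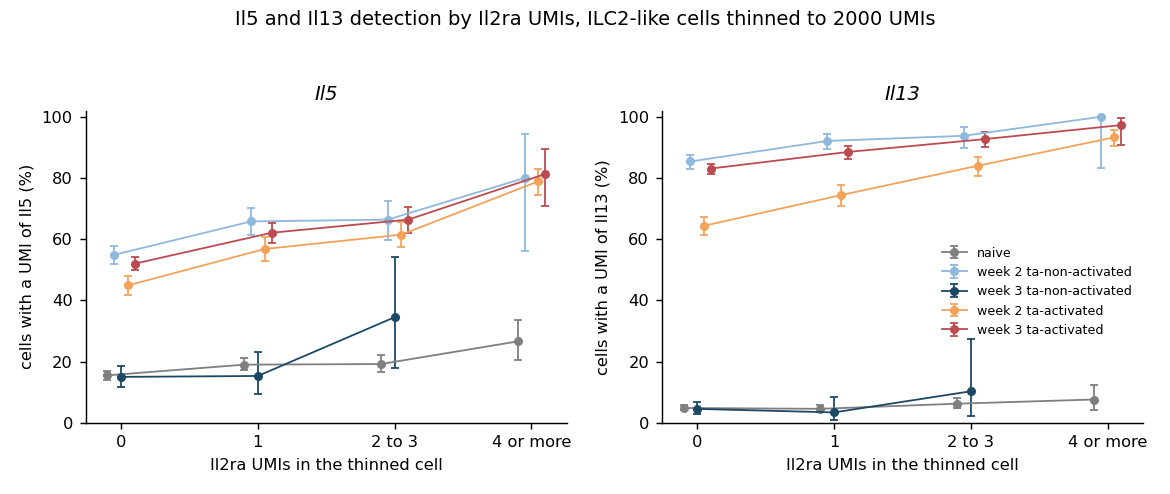
Percent of ILC2-like cells with a UMI of Il5 (left) or Il13 (right) by the number of Il2ra UMIs (horizontal axis), each cell thinned to 2000 UMIs; lines are libraries, bars are exact 95% binomial intervals, and classes under 20 cells are not drawn. In week 2 ta-activated cells Il13 went from 64.4% at 0 to 93.3% at 4 or more Il2ra UMIs, and naive cells stayed under 10% throughout.

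Genes whose level in all kept cells followed a chain most closely over the 5 libraries were ranked among 9117 genes. The measure was the root mean square difference of centred log2(CPM + 1). The nearest to Il2ra were Mei4 (0.171), Gsn (0.177), Socs2 (0.302), Metrnl (0.319) and Ubtd1 (0.326), of which Socs2 stood at 80.0, 63.4, 30.7, 153 and 90.7 CPM in the order naive, ta-non-activated weeks 2 and 3 and ta-activated weeks 2 and 3. The nearest to Il2rb were Cd200r1 (0.085), Osbpl3 (0.171), Arid5b (0.172), Crybg1 (0.223) and Rnf19b (0.231), of which Cd200r1, an inhibitory receptor, stood at 234, 108, 21.8, 192 and 247 CPM. The nearest to Il2rg were Trim24 (0.118), Cep162 (0.144), Dync1h1 (0.159), Chd4 (0.161) and Adcy3 (0.181). Mei4 stood at 14.6 CPM or less in every library. The week 3 ta-non-activated point was of mostly T-cell-like cells, so these ranks also depended on the cells counted. At that point Il2rb was at 7.77 CPM and Il2rg at 154 CPM, against 25.5 and 406 CPM in its ILC2-like cells. Socs2, at 30.7 CPM there, stood at 115 CPM in its ILC2-like cells, above the 86.1 CPM of naive ILC2-like cells. Il2ra instead stood at 158.5 CPM in those week 3 cells, below the 463 CPM of naive ILC2-like cells. With 5 points a chain, such closeness is a description of these libraries.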

How the data were processed

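Each matrix deposited by the authors holds unnormalized UMI counts, from Cell Ranger (3.0.2 in the processing notes and in 4 matrix headers, 6.0.0 in that of the naive library) on GRCm38 and 10x Genomics 3' libraries. The annotation used for counting is not given in the sources used here. Deposited totals ran from 9910201 UMIs (week 3 ta-non-activated) to 71126524 (week 3 ta-activated).

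Barcodes with 200 or more genes and under 5% mitochondrial counts were kept. No doublet caller was run, and cells with the most UMIs were left out as an alternative. Clustering (scanpy 1.11.5, 2000 variable genes, 30 components, Leiden resolution 0.5) left out the 3 chains, and the rule for ILC2-like clusters was set after the clusters had been seen. Intervals are 95% (exact Poisson for CPM, Clopper-Pearson for shares) and cover counting error only. Counts summed per library, or per library and cycle class, were tested with edgeR 4.0.16 (quasi-likelihood, TMM, Benjamini-Hochberg over all genes tested, threshold 0.05) in R 4.3.3, with DESeq2 1.42.0 as an alternative; the scripts were tested on simulated data. With 1 library, the naive group entered no test. Libraries of a group are of different weeks, so p-values also carry the difference between weeks.

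Named genes are all 3 chains, the 2 genes of each pathway role with the largest absolute log2 fold change, the 5 genes nearest to each chain and markers of named clusters. The members and lists were chosen with earlier results of these data known.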

Additional observations from a re-analysis of the deposited data

Results flagged for a closer look

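Effects of opposite direction in the 2 weeks under the same contrast, each from 1 library a point and not tested as a difference, were found in 2 settings. Against the naive library, the log2 ratio of ta-activated cells was 1.38 in week 2 and -0.26 in week 3 for Il2ra, -0.93 and 0.19 for Il2rg, and -0.13 and 0.019 for Il2rb. The naive level itself came from another Cell Ranger version, whose part was not tested.

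Among ta-activated cells of 2000 to 10000 UMIs, the log2 ratio of cycling over other cells was 0.526 in week 2 and -0.17 in week 3 for Il2ra, 0.258 and -0.736 for Il2rg, and -0.00112 and 0.0827 for Il2rb. The week 2 values rest on 26 cycling cells. That of Il2rb rests on 8 UMIs in them, 51.48 CPM (interval 22.2 to 101 CPM) against 51.52 CPM in other cells, so it has no clear direction.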

How the results depend on the processing

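Between ta-activated and ta-non-activated cells, Il2ra and Il2rb kept their direction under every alternative and Il2rg reversed in ILC2-like or proliferating clusters only (-0.075). With each library left out, log2 fold changes ran from 0.52 to 2.52 for Il2ra, 0.92 to 3.53 for Il2rb and 0.15 to 1.27 for Il2rg, and the count of genes past the threshold from 0 to 1646 (513 without ta-non-activated replicate 2). The lone sample is assumed to vary like the other group. DESeq2 called 1037. The week as a replicate block gave 1.49, 2.20 and 0.70 with 0 genes called. The week is a time point that both groups share. Over all kept cells, the week 2 minus week 3 differences of the groups correlated at -0.058 over 9118 genes. The week 3 fresh library was 42.5% ILC2-like, so this cannot say whether ILC2-like cells of the same week deviated together. In ILC2-like cells, Il2rg levels of the same week lay close, as given above. Testing all genes with at least 1 count moved the median log2 fold change of all genes from -0.02 to 0.12.

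Between cycling and other cells, splitting without thinning reversed Il2ra (0.22) and Il2rb (0.16). Without a library block, Il2ra (-0.39) and Il2rg (-0.63) lost their call and 434 genes were called; DESeq2 called 2791 in place of 5080. Il2rb passed with all genes (-0.26), without the 6% of cells with the most UMIs (-0.41) and in cells of 20000 to 40000 UMIs only (-0.80). In single libraries, whose log2 CPM ratios had no further scaling, Il2ra ranged from -0.37 to -0.18, Il2rb from -0.28 to -0.030 and Il2rg from -0.60 to -0.49. The cause of these changes was not tested. The other alternatives, which include another thinning seed added after seeing the data, changed no call.

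Shares of cells with a UMI moved at every other depth tried. The week 3 ta-non-activated level of Il2rb rests on 73 UMIs, and with 2 libraries a group the tests have few degrees of freedom.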
